A study of Sus scrofa with 16 samples.

Results

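Liver was compared with brain stem in 4 gilts, which are young female pigs, aged about 165 days. The pair was chosen by tissue from the array titles. Both tissues were put together on 3 of the 16 arrays of the study, and the remaining arrays joined them through the other tissues of the same animal, skeletal muscle (longissimus) and what the labels call uterine endothelium. Each gilt supplied all 4 tissues, had no treatment named in the labels, and formed a closed loop of 4 arrays with 2 dyes. Liver and brain stem shared an array in gilt 1 (liver in Cy5, brain stem in Cy3) and in gilts 3 and 4 (liver in Cy3, brain stem in Cy5), and in gilt 2 they were linked only over uterine endothelium and over muscle. The array titles and sources call the nervous tissue brain, and the design text calls it brain stem. Values are described for the 175 genes that carry a symbol, among 20733 features measured with oligonucleotides of 70 bases. Each difference below is liver minus brain stem, on a log2 scale, solved from the 4 arrays of a gilt by least squares, and its replicates are the 4 gilts.

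Liver parenchyma is made mostly of hepatocytes, which secrete most proteins of blood plasma, make bile acids from cholesterol, and in pigs, unlike in humans, oxidise urate further. The brain stem joins the spinal cord to the forebrain. It holds motor and sensory nuclei, neurons that use GABA, glycine or monoamines, and tracts wrapped in myelin by oligodendrocytes. A difference between bulk pieces of 2 organs mixes the number of cells of each type with the RNA that each cell holds, and these cannot be told apart here.

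Neither the log base nor the direction of the deposited ratios is stated in the sources used here. A base of 2 and Cy5 over Cy3 were taken as likely, and the direction rests on the high liver values of CRP, PROC, UOX, MBL2 and CYP7A1, which are for that reason not independent evidence of it. With the sign turned, every "higher" below becomes "lower". Array medians lay between -0.01 and 0.01. The 4 gilts' differences correlated with each other with r between 0.77 and 0.88 across all features and between 0.79 and 0.93 across the named genes (features are not independent replicates). Spot brightness was not used here, so a small ratio of a dim spot could not be separated from that of a bright one.

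Of the 175 named genes, 46 were higher in liver and 35 were lower (limma adjusted p below 0.05 over all features), while 94 did not pass. These 81 genes are 46.3% of the named genes, beside 37.6% called among all features. By direction, 26.3% of the named genes were higher and 20% were lower, beside 21.1% and 16.5% of all features. Most of the called differences were small, with a median of 0.52 among the genes higher in liver and of -0.47 among the genes lower in liver, and 42 of the 81 were under 0.5 in size. A size of at least 1 was reached by 14 of the higher and 4 of the lower genes, which makes 10.3% of the named genes, against 10.7% of all features. The split depends on the zero point: when the pair was centred on 384 table rows of small spread, a choice made after seeing the data, every difference shifted up by 0.16, and 69 named genes were higher and 15 lower, with 7877 and 1672 among all features. Of those 384 rows, 98 were themselves called, and an upward shift favours higher calls over lower ones. All 46 higher calls and 15 of the 35 lower calls held under that centring, which is no measure of their firmness. The 20 calls lost, between -0.54 and -0.16 before it, were those of ACVR2B, B3GNT5, CEND1, CXCR6, GAD2, HTR4, ITGA2B, LY49, MC1R, OPN1SW, PAG6, PDYN, PIK3C3, PLIN1, PPYR1, RXFP4, SIGLEC1, SRY, VNN1 and ZPBP. Of the 81 called genes, 78 had 1 sign in all 4 gilts, and the exceptions were CD4, GAD2 and LY49. The share of genes with 1 sign in all gilts, called or not, was 58.3% among the named genes and 52% among all features.

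**Figure D1:**
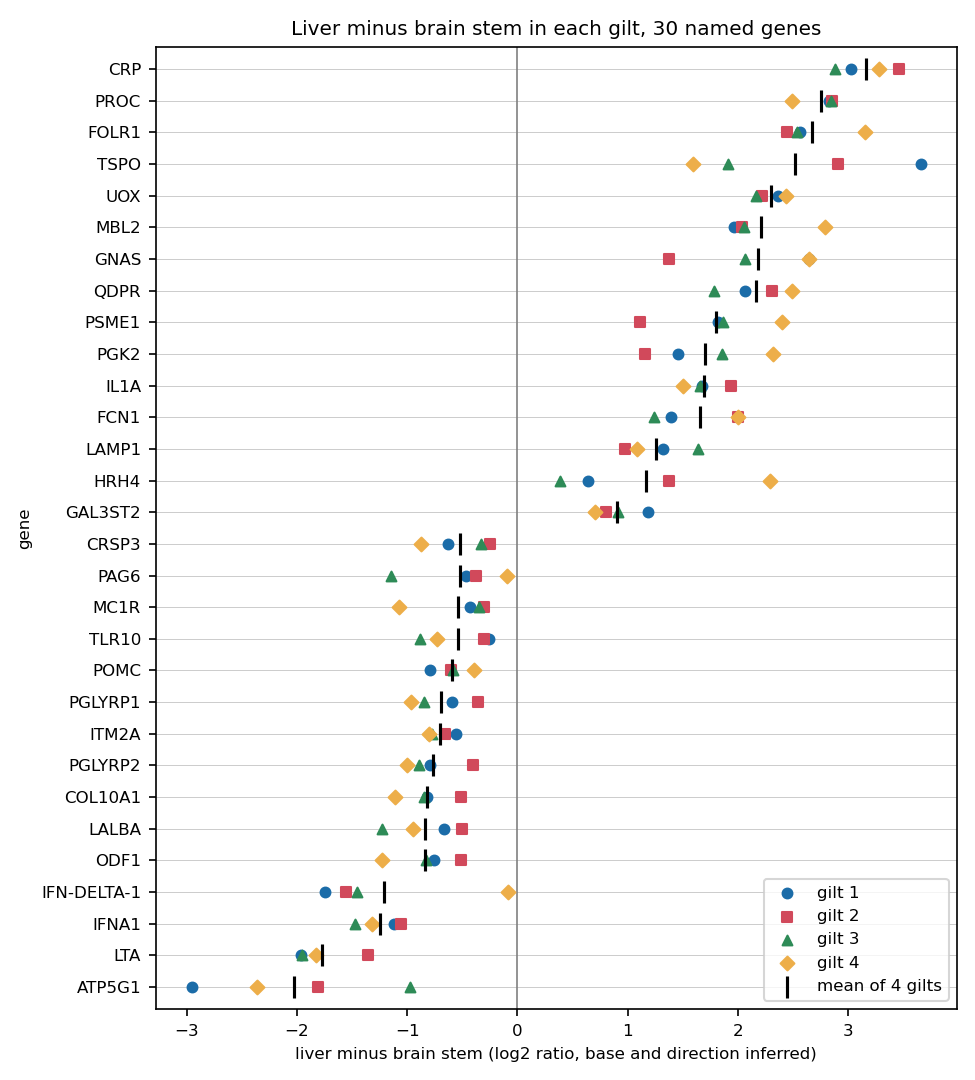
Liver minus brain stem (log2 ratio, horizontal axis) of the 15 largest differences in each direction among the called genes with 1 sign in all gilts, with a symbol for each gilt and a bar for the mean of 4 gilts. The 4 gilts lie close together for UOX (2.17 to 2.44) and far apart for TSPO (1.60 to 3.66) and IFN-DELTA-1 (-1.74 to -0.09).

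CRP and PROC had the largest differences among the named genes, followed by FOLR1 (2.67), TSPO (2.52), UOX (2.30) and MBL2. Of these, CRP, PROC and MBL2 are plasma proteins made by hepatocytes, and they had served to set the direction. All 5 measured members of a list of such proteins passed, 4 of them higher in liver (CRP, PROC, MBL2, FCN1) and 1 lower (PGLYRP2), with a list median of 2.21 beside -0.01 over all features, of which 37.6% passed. CRP (array row 8596), the pentraxin of the acute phase response, differed by 3.02, 3.46, 2.88 and 3.28 in gilts 1 to 4. Its mean of 3.16 ± 0.26 (SD, n = 4) was the highest among the named genes, 8.94-fold if the base is 2 (limma adjusted p = 3.06e-07). Every gilt was near this mean. The difference lay on the liver side, since liver exceeded the mean of muscle and uterine endothelium by 3.37, whereas brain stem differed from that mean by 0.20, which did not pass.

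PROC, the zymogen of the anticoagulant protease protein C, differed by 2.83, 2.85, 2.84 and 2.49, a mean of 2.75 ± 0.18 (SD, n = 4; limma adjusted p = 3.03e-07). Its gilts 1 to 3 were almost equal and gilt 4 was lower. MBL2, the mannose-binding lectin that starts the lectin pathway of complement, differed by 1.97, 2.04, 2.06 and 2.79, with a mean of 2.21 ± 0.39 (SD, n = 4; limma adjusted p = 4.29e-06). Here gilt 4 was the high one. FCN1, a ficolin of the same pathway, differed by 1.39, 2.00, 1.23 and 2.00, with a mean of 1.66 ± 0.40 (SD, n = 4; limma adjusted p = 9.88e-06), so that 2 gilts were clearly above the other 2. For PROC, MBL2 and FCN1, too, liver was above the mean of muscle and uterine endothelium, by 2.76, 2.07 and 1.67, and the brain stem values of 0.01, -0.14 and 0.01 did not pass.

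PGLYRP2, an amidase that cleaves bacterial peptidoglycan and in humans is secreted by the liver, went against its list. It differed by -0.79, -0.40, -0.89 and -1.0, below 0 in every gilt, with a mean of -0.77 ± 0.26 (SD, n = 4; limma adjusted p = 8.31e-05). Its liver value was within 0.05 of the mean of muscle and uterine endothelium, and brain stem stood 0.82 above that mean. PGLYRP1, a related peptidoglycan receptor of neutrophil granules, moved the same way, with a mean of -0.69 ± 0.27 (SD, n = 4; limma adjusted p = 0.002).

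Of 6 hepatocyte enzymes, 3 were higher in liver (UOX, QDPR, CYP7A1), VNN1 was lower, and CYP8B1 and ACADS did not pass, for a list median of 0.59. Over all features 21.1% were higher and 16.5% lower, and UOX and CYP7A1 had also served to set the direction. UOX, urate oxidase, differed by 2.36, 2.22, 2.17 and 2.44, a spread of only 0.13 around a mean of 2.30 (SD, n = 4; limma adjusted p = 9.75e-08). QDPR, which recycles the tetrahydrobiopterin used by phenylalanine hydroxylase in liver and by tyrosine and tryptophan hydroxylases in neurons, differed by 2.07, 2.31, 1.78 and 2.49, with a mean of 2.16 ± 0.31 (SD, n = 4; limma adjusted p = 1.47e-06). For UOX the liver side (2.21) passed and the brain stem side (-0.09) did not. QDPR was 1.67 higher in liver and 0.49 lower in brain stem than in the other tissues, and both of these passed.

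CYP7A1, which sets the rate of bile acid synthesis, had a smaller and more variable difference of 1.29, 0.92, 0.77 and 0.26, with a mean of 0.81 ± 0.43 (SD, n = 4; limma adjusted p = 0.00215). Gilt 4 had barely any excess in liver, and the call held without each gilt in turn. CYP7A1 passed neither on the direct arrays alone (0.67, limma adjusted p = 0.0881) nor on the indirect paths alone (1.03, limma adjusted p = 0.0582). CYP8B1, which directs the same pathway towards cholic acid, had 0.26, 0.97, 0.08 and 0.14, so that its mean of 0.36 ± 0.41 (SD, n = 4) came mainly from gilt 2 and did not pass (limma adjusted p = 0.0593). ACADS, a mitochondrial dehydrogenase of short-chain acyl-CoA, averaged 0.08 ± 0.21 (SD, n = 4; limma adjusted p = 0.654).

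VNN1, a pantetheinase that recycles vitamin B5, was called lower in liver with -0.45, -0.17, -0.19 and -1.08 (limma adjusted p = 0.0476). The call was not held when gilt 1 (mean -0.48), gilt 3 (-0.57) or gilt 4 (-0.27) was left out. The direct arrays gave -0.60, -0.26 and -1.50 in gilts 1, 3 and 4, which did not pass on their own (mean -0.78, limma adjusted p = 0.127), and the indirect paths of the same gilts gave 0.00, 0.02 and 0.15.

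Among the other genes higher in liver, several of the largest differences lay partly or wholly on the brain stem side. FOLR1, a folate receptor anchored in the membranes of epithelial cells, differed by 2.56, 2.45, 2.54 and 3.15, with a mean of 2.67 ± 0.32 (SD, n = 4; limma adjusted p = 2.96e-06). Liver was 0.97 above and brain stem 1.71 below the mean of muscle and uterine endothelium, and both passed. GNAS, the stimulatory G protein alpha subunit that couples hormone receptors to adenylate cyclase, differed by 2.65, 1.37, 2.07 and 2.64, with a mean of 2.18 ± 0.61 (SD, n = 4; limma adjusted p = 6.07e-05). Its liver value (-0.17 against the other tissues) did not pass, and its difference from liver came from a brain stem value 2.35 below them.

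PSME1, a subunit of an activator of the proteasome, showed the same form. It differed by 1.81, 1.11, 1.86 and 2.40 (mean 1.80 ± 0.53, SD, n = 4; limma adjusted p = 2.38e-05), with liver at 0.09 and brain stem at -1.70 against the other tissues. PSMB8, a catalytic subunit of the immunoproteasome, had 0.27, -0.07, 0.51 and 1.01 and did not pass (limma adjusted p = 0.0676). PGK2, the phosphoglycerate kinase of testis, differed by 1.46, 1.16, 1.86 and 2.31 (mean 1.70 ± 0.50, SD, n = 4; limma adjusted p = 0.000155). For PGK2 both tissues were below muscle and uterine endothelium, with liver at -1.27 and brain stem at -2.97, and since PGK1 is a close copy the identity of the RNA behind this probe is uncertain.

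IL1A, an inflammatory cytokine of the interleukin-1 family, was among the steadiest large differences, with 1.67, 1.94, 1.66 and 1.51 (mean 1.69 ± 0.18, SD, n = 4; limma adjusted p = 9.73e-08). Liver was 0.89 above and brain stem 0.80 below the other tissues. LAMP1, a glycoprotein of the lysosome membrane, differed by 1.32, 0.98, 1.64 and 1.09 (limma adjusted p = 0.000345), of which the brain stem side (-0.84) passed and the liver side (0.42) did not.

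TSPO, the cholesterol-binding protein of the outer mitochondrial membrane, had a mean as large as that of UOX and a far wider spread. It differed by 3.66, 2.91, 1.91 and 1.60, with a mean of 2.52 ± 0.94 (SD, n = 4; limma adjusted p = 0.000732). Gilts 1 and 2 were well above gilts 3 and 4. Of this, the liver side of 1.60 passed and the brain stem side of -0.91 did not.

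Smaller and even differences were found for PRLR, the prolactin receptor, with 0.87, 0.90, 0.81 and 0.98 (mean 0.89 ± 0.07, SD, n = 4; limma adjusted p = 2.14e-06). GOT1, the cytosolic aspartate aminotransferase, had 0.71, 0.67, 1.46 and 0.76, with gilt 3 apart from the others (limma adjusted p = 0.00016). GAL3ST2, a sulfotransferase that acts on galactose of glycoproteins, had 1.19, 0.80, 0.91 and 0.70 (limma adjusted p = 0.000305). RPN2, a subunit of the enzyme that attaches sugars to new secretory proteins, averaged 0.71 ± 0.17 (SD, n = 4; limma adjusted p = 0.000165). In PRLR and GOT1 both sides passed, in GAL3ST2 only liver (0.98) and in RPN2 only brain stem (-0.49).

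MAOA, which breaks down serotonin and noradrenaline, was higher in liver by 0.76, 0.55, 1.00 and 0.83. It passed with a limma adjusted p of 0.0123, lost its call without gilt 4 (0.77), and lay on the brain stem side (-0.59). All 4 tissues share the estimate of spread behind such a call. On the 3 direct arrays alone MAOA passed (0.81, limma adjusted p = 0.00767). ITGB1, the beta subunit shared by many integrins, averaged 0.63 ± 0.20 (SD, n = 4; limma adjusted p = 0.0376), was 0.85 lower in brain stem than in the other tissues, and lost its call without gilt 2 (0.70) or gilt 4 (0.56).

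Counted over the 46 genes higher in liver, liver was above the mean of muscle and uterine endothelium in 24 and brain stem was below it in 24. In 17 genes only the first of these passed, in 7 both passed, and in 15 brain stem alone was below. In PGK2 and SPRP both tissues were below the mean, and in 5 genes no side passed. Among all features higher in liver, liver was above in 44.6% and brain stem below in 60.3%, beside 52.2% each among the named genes. Of the 35 genes lower in liver, brain stem was above in 27 (77.1%, beside 80.8% of all features lower in liver), liver was below only for ITM2A (2.86%, beside 12.2%), and in 7 no side passed. Over all features 12.8% were above and 12.1% below in liver, and 20.5% were above and 24.8% below in brain stem. Both contrasts share the muscle and uterine samples with each other, and the liver and brain stem samples with the comparison itself, so they describe the pair and add no support to it.

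**Figure D2:**
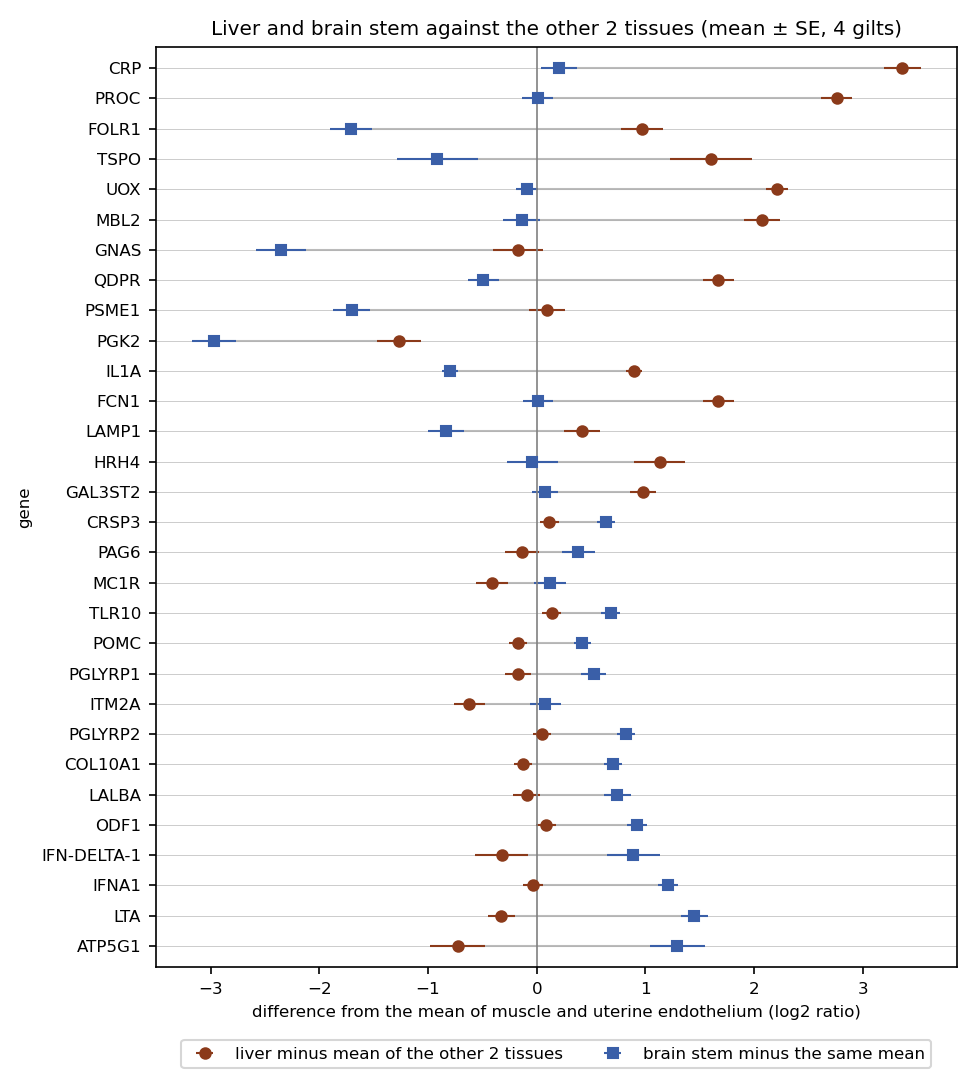
Liver (circles) and brain stem (squares) minus the mean of muscle and uterine endothelium (log2 ratio, mean ± SE over 4 gilts) for the same 30 genes. CRP, PROC, UOX, MBL2 and FCN1 have brain stem near 0 and liver far to the right, GNAS and PSME1 have liver near 0 and brain stem far to the left, and most genes lower in liver have liver near 0 and brain stem to the right.

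Among the genes lower in liver, ATP5G1 had the largest difference. It encodes the c subunit of mitochondrial ATP synthase, and differed by -2.95, -1.81, -0.97 and -2.36, with a mean of -2.02 ± 0.84 (SD, n = 4; limma adjusted p = 0.000198), or 4.06-fold lower if the base is 2. All gilts were well below 0, and gilt 3 least so. The excess of brain stem over the other tissues (1.29) passed and the liver value (-0.73) did not. The subunit has near relatives encoded by other genes with the same mature protein, and which of them the probe binds was not tested.

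Of 9 cytokines and interferons, 4 were lower in liver, IL1A was higher, and 4 did not pass, with a list median of -0.15. The shares over all features were 16.5% lower, 21.1% higher and 37.6% in all. LTA, lymphotoxin alpha, differed by -1.96, -1.36, -1.95 and -1.83 (mean -1.78 ± 0.29, SD, n = 4; limma adjusted p = 2.86e-06). IFNA1, a type I interferon from a family of near-identical genes, differed by -1.12, -1.05, -1.47 and -1.32 (mean -1.24 ± 0.19, SD, n = 4; limma adjusted p = 2.65e-06). In both genes all gilts were clearly below 0 and brain stem exceeded the other tissues, by 1.45 for LTA and 1.21 for IFNA1.

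IFN-DELTA-1, an interferon known from the pig conceptus, differed by -1.74, -1.56, -1.45 and -0.09 (mean -1.21 ± 0.76, SD, n = 4; limma adjusted p = 0.00532). Gilt 4 was close to 0, and the call was lost without gilt 3 (-1.13). IL17A, the cytokine of T helper 17 cells, averaged -0.52 ± 0.18 (SD, n = 4; limma adjusted p = 0.000655). IFNB1 (-0.01) and IL2 (-0.05) did not pass.

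The next genes by size were ODF1, a protein of the outer dense fibres of the sperm tail, with -0.76, -0.51, -0.83 and -1.23 (limma adjusted p = 9.22e-05), and LALBA, the alpha-lactalbumin of milk, with -0.66, -0.50, -1.22 and -0.94 (limma adjusted p = 0.000694). COL10A1, a collagen of hypertrophic cartilage, had -0.82, -0.51, -0.85 and -1.11 (limma adjusted p = 3.57e-05). All 3 are known mainly from tissues other than liver and brain. In each of them gilt 2 had the smallest difference and brain stem exceeded the other tissues, by 0.92 for ODF1, 0.74 for LALBA and 0.70 for COL10A1. ITM2A, a membrane protein of chondrocytes, muscle precursors and T cells, differed by -0.56, -0.66, -0.78 and -0.81 (limma adjusted p = 0.00596), and liver was 0.62 below the other tissues.

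Of 7 genes of nervous transmission, GAD2, HTR4 and CEND1 were lower in liver, GLRB was higher, and 3 did not pass, with a list median of -0.19. Thus 4 of 7 passed, beside 37.6% of all features, and the largest in size was 0.41. GAD2, which makes the inhibitory transmitter GABA in nerve terminals, had -0.25, 0.01, -0.28 and -0.78 (limma adjusted p = 0.0388). It was lower in liver in 3 of 4 gilts, and the call was lost without gilt 1 (-0.35), gilt 3 (-0.34) or gilt 4 (-0.17). GAD1, the other GABA-making enzyme, had a mean of 0.09 and did not pass (limma adjusted p = 0.181).

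HTR4, a serotonin receptor, averaged -0.29 ± 0.28 (SD, n = 4; limma adjusted p = 0.0353) and lost its call without gilt 2 (-0.30), gilt 3 (-0.16) or gilt 4 (-0.32). CEND1, a protein of neurons that leave the cell cycle, was the smallest and most even of the 3, with -0.21, -0.22, -0.16 and -0.18 (limma adjusted p = 0.0425). Its call was lost without any single gilt, at values between -0.20 and -0.18. GLRB, the beta subunit of the glycine receptor that mediates inhibition in brain stem and spinal cord, went the other way, with 0.35, 0.59, 0.27 and 0.44 (mean 0.41 ± 0.14, SD, n = 4; limma adjusted p = 0.00238). Brain stem was 0.32 below the mean of muscle and uterine endothelium for this gene, and in the table its row follows one with a difference of 1.75.

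No gene of the list of glial and myelin genes carried a symbol (0 measured), so the myelin of the brain stem could not be checked with it. OPALIN, a myelin membrane protein of oligodendrocytes found among the probe names, had -0.03, -0.12, -0.35 and 0.02 and did not pass (limma adjusted p = 0.219). The calcium channel subunit CACNB4 (-0.22) and the secretory carrier protein SCAMP1 (-0.09) did not pass either. Since 5 of the 7 hepatocyte genes higher in liver had served to set the direction, they are no check of the tissue labels.

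**Figure D3:**
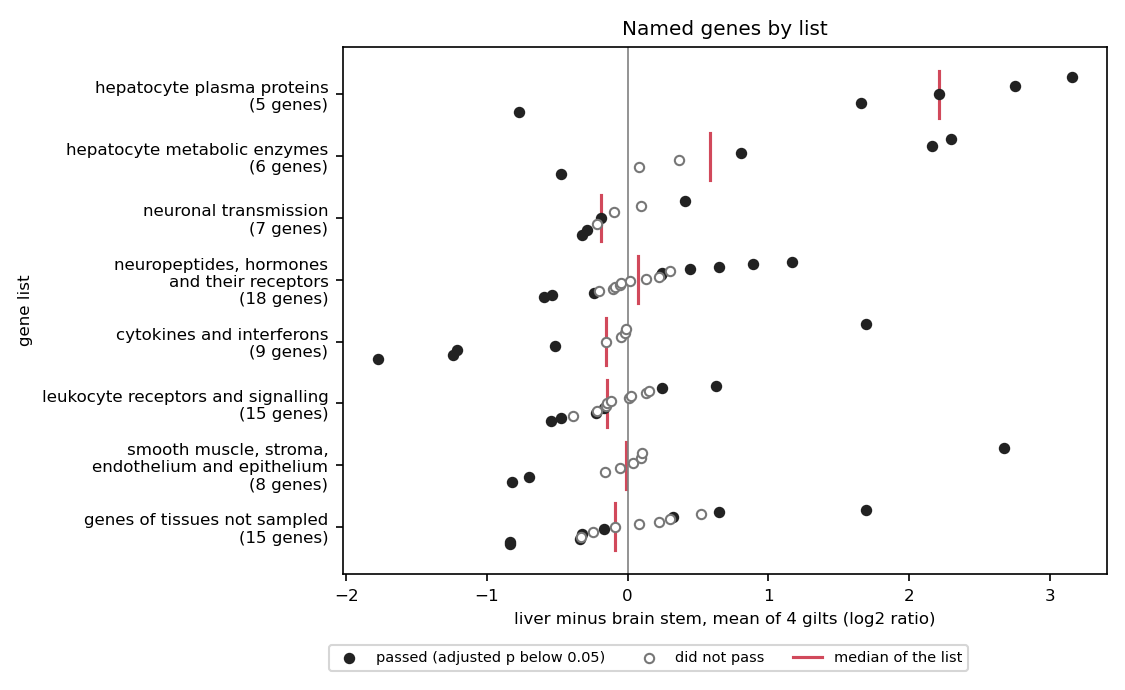
Liver minus brain stem (mean of 4 gilts, log2 ratio) of the named genes in 8 lists, with filled points for genes that passed and open points for genes that did not, and a bar at each list's median. The plasma proteins have a median of 2.21 with PGLYRP2 alone below 0, the enzymes of 0.59, and the other lists lie around 0.

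A list of neuropeptides, hormones and their receptors had calls in both directions, as had all features (21.1% higher, 16.5% lower). Of 18 measured, HRH4, PRLR, LHB, HCRT, ASIP and NPPA were higher in liver, POMC, MC1R and PDYN were lower, and 9 did not pass, with a list median of 0.07. NPPA, the precursor of atrial natriuretic peptide, lost its call without gilt 1 (0.27), gilt 2 (0.20) or gilt 3 (0.16). POMC, the precursor of corticotropin, melanocortins and beta-endorphin, was lower in liver by -0.79, -0.60, -0.59 and -0.39 (mean -0.59 ± 0.16, SD, n = 4; limma adjusted p = 0.000359), in every gilt. MC1R, a receptor for melanocortins, had -0.43, -0.30, -0.35 and -1.08 (limma adjusted p = 0.0274) and lost its call without gilt 1 (-0.57), gilt 3 (-0.60) or gilt 4 (-0.36).

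PDYN, the precursor of dynorphin opioids, averaged -0.24 ± 0.08 (SD, n = 4; limma adjusted p = 0.0137) and lost its call without gilt 2 (-0.23) or gilt 3 (-0.24). HCRT, the precursor of the wake-promoting orexins, was higher in liver by 0.45 ± 0.14 (SD, n = 4; limma adjusted p = 0.000877), with brain stem 0.27 below the other tissues. LHB, the beta subunit of luteinizing hormone from the pituitary, was higher by 0.65 ± 0.23 (SD, n = 4; limma adjusted p = 0.000338), also on the brain stem side (-0.49).

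HRH4, a histamine receptor of leukocytes, differed by 0.64, 1.37, 0.38 and 2.29 (limma adjusted p = 0.00534), with gilt 4 far above gilt 3. Its row follows that of IL1A in the table. ASIP, the agouti signalling protein that opposes MC1R, was represented by 4 probes, which differed by 0.20, 0.36, 0.22 and 0.21. All 4 passed on their own (limma adjusted p between 0.00991 and 0.0343), and their mean of 0.25 lost its call without gilt 2 (0.22) or gilt 3 (0.26).

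Of 11 further genes of the nervous system, drawn up from the probe names, MAOA, DIO2 and NPW were higher in liver, SSTR5 and PPYR1 were lower, and 6 did not pass, so that 5 of 11 passed beside 37.6% of all features. NPW, the precursor of neuropeptide W (0.20), lost its call without any single gilt. SSTR5, a somatostatin receptor, was very even, with -0.47, -0.41, -0.49 and -0.48 (mean -0.46 ± 0.04, SD, n = 4; limma adjusted p = 1.12e-05). PPYR1, the receptor for pancreatic polypeptide, had -0.18, -0.17, -0.25 and -0.98, rested on gilt 4 (-0.20 without it), and lost its call without any single gilt. CRSP3, a pig peptide of the calcitonin family, had -0.63, -0.25, -0.33 and -0.88 (limma adjusted p = 0.00153). The enzymes that switch thyroid hormone on (DIO2) and off (DIO3) were both slightly higher in liver, by 0.32 ± 0.28 and 0.29 ± 0.11 (SD, n = 4; limma adjusted p = 0.0316 and 0.00406), and the call of DIO2 was lost without gilt 1 (0.37), gilt 2 (0.20) or gilt 3 (0.31).

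Markers of other cells that either piece of tissue could hold passed about as often as all features did (37.6%). Of 15 leukocyte receptors and signalling proteins, ITGB1 and CD4 were higher in liver, TLR10, CXCR6, SIGLEC1 and ITGA2B were lower, and 9 did not pass, with a median of -0.15. CD4, the T helper cell receptor (0.25), lost its call without gilt 1 (0.28), gilt 2 (0.16) or gilt 4 (0.21), and CXCR6, a chemokine receptor (-0.47), without gilt 1 (-0.45) or gilt 3 (-0.37). TLR10, a Toll-like receptor of B cells, had -0.25, -0.30, -0.88 and -0.73 (limma adjusted p = 0.00139). SIGLEC1, a receptor of resident macrophages that liver also holds, averaged -0.22 ± 0.18 (SD, n = 4; limma adjusted p = 0.032), and lost its call without any single gilt. Of the genes of smooth muscle, stroma, endothelium and epithelium, FOLR1 was higher, COL10A1 and ITM2A were lower, and 5 of 8 did not pass, among them the caveolar protein CAV1 (0.10).

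Of 3 skeletal muscle genes only MYH7 passed (0.33), with the call lost without gilt 1 (0.35) or gilt 3 (0.33), and the myogenic factor MYOD1 (0.10) did not. Of 2 erythroid and platelet genes, the globin HBE1 (-0.04) did not pass and the platelet integrin ITGA2B (-0.16) did, with the call lost without any single gilt (values between -0.20 and -0.12). The part that other cell types play in the differences above was not tested.

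A list meant for tissues that were not sampled, such as testis, milk gland and retina, had 15 measured genes. Of these, 3 were higher in liver (PGK2, LHB, SULT1E1), 5 were lower (ODF1, LALBA, OPN1SW, ZPBP, SRY), and 7 did not pass. SULT1E1, an estrogen sulfotransferase, is known from liver as well. That 8 of 15 passed can be read beside the 37.6% of all features. In a second list of testis, ovary and retina genes, drawn up from the probe names, 1 of 6 passed (PAG6, lower in liver). The calls of SULT1E1 (0.31 without gilt 2), OPN1SW (-0.32 without gilt 4) and ZPBP (-0.34, -0.21 and -0.33 without gilts 1, 3 and 4) were each lost in that way. SRY, the sex-determining gene of the Y chromosome, which gilts lack, was among the 5 lower genes of the first list. It had -0.09, -0.16, -0.30 and -0.13 (mean -0.17 ± 0.09, SD, n = 4; limma adjusted p = 0.0376). It lost its call without any single gilt (values between -0.19 and -0.13). A difference of this size thus passed for a gene that these animals do not carry. Of the called genes, 23 of the 46 higher and 19 of the 35 lower were under 0.5 in size.

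Among named genes, 15 stood in the table just after a row with a difference of at least 1 in size, and 6 of these 15 passed, beside 37.6% of all features. PAG6 and SLC22A2, 2 of the 6, lost their call without single gilts, PAG6 without gilt 3 (-0.31) among others and SLC22A2 without gilt 3 (0.36). HRH4 (after 1.69), GLRB (after 1.75), PLIN1 (after -2.02, the row of ATP5G1) and PAG6 (after -1.03) had the sign of the row before them. LALBA (after 3.16, the row of CRP) and SLC22A2 (after -1.21) had the opposite sign. Carry-over between neighbouring rows was not tested.

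The calls were unequally firm across gilts. Without each gilt in turn, 32 of the 46 higher and 16 of the 35 lower genes kept their call every time, and of those of at least 1 in size all 14 higher and 3 of 4 lower did. Of the 7791 features called, 5291 to 6166 kept their call without a given gilt, beside 54 to 61 of the 81 named genes. On the 3 direct arrays alone, 21 of the 46 and 13 of the 35 were called, beside 3989 of the 7791 features. On the indirect paths alone, which also include gilt 2, 20 and 11 were called, beside 2885 of the 7791 features. Of all features, 20.9% were called on direct arrays and 14.2% on indirect paths. Among the named genes, 17 higher and 8 lower passed in both. The 17 were CRP, FCN1, FOLR1, GAL3ST2, GNAS, IL1A, ITGB1, LAMP1, MAOA, MBL2, PGK2, PRLR, PROC, PSME1, QDPR, RPN2 and UOX, and the 8 were COL10A1, IFNA1, LALBA, LTA, ODF1, PGLYRP1, PGLYRP2 and POMC. TSPO and ATP5G1, among the largest differences, passed on indirect paths (means of 3.00 and -2.33) and not on direct arrays (2.17 and -1.96, limma adjusted p = 0.0719 and 0.0524). The indirect means include gilt 2, which has no direct array, so the 2 fits differ in their gilts.

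The loop design gave 2 estimates of the pair in gilts 1, 3 and 4, 1 from the direct array and 1 from the 3 arrays that reach brain stem from liver through uterine endothelium and muscle. Across all features the estimates correlated with r = 0.76 in gilt 1, 0.83 in gilt 3 and 0.84 in gilt 4, and they lay a median of 0.25, 0.26 and 0.25 apart. In gilt 2, whose estimates were both indirect and ran over 2 arrays each, r was 0.66 and the median distance 0.31. The means of direct and indirect values had the same sign for 45 of the 46 higher genes (all but OCA2) and 34 of the 35 lower genes (all but VNN1), and for 142 of the 175 named genes and 16605 of all 20733 features. Among the 94 named genes that did not pass, 63 had the same sign. The least-squares value combines both estimates, so genes called on it tend to have 1 sign in both. The shared sign therefore adds no support to the calls.

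No feature differed between the direct array and the indirect path (0 of 20733 at a limma adjusted p below 0.05, 0% called). At an unadjusted limma p below 0.05 there were 701 features, 7 of them named, in both cases a smaller share than the threshold alone would let through. In simulated data, 71% of 100 features shifted by 3 on the direct arrays were recovered, so smaller distances could be missed. The design has only 3 gilts for this, and without gilt 1, whose direct array alone had liver in Cy5, 247 features passed. The largest mean distances among the named genes were those of FOLR1 (1.43), PROC (1.35), ATP5G1 (1.35), S100A11 (1.31) and GNAS (1.18).

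For PROC, the direct arrays gave 3.33, 2.60 and 2.75 in gilts 1, 3 and 4, and the indirect paths gave 1.31, 3.56 and 1.69. The direct array was thus the higher one in gilts 1 and 4 and the lower one in gilt 3, while the least-squares values of this gene were among the most even. FOLR1 had 2.87, 2.22 and 2.70 on direct arrays and 1.64, 3.50 and 4.49 on indirect paths. GNAS had 2.68, 1.70 and 2.15 on direct arrays and 2.55, 3.16 and 4.11 on indirect paths. Both had the larger direct value in gilt 1 and the larger indirect value in gilts 3 and 4. ATP5G1 had -2.46, -0.75 and -2.66 on direct arrays and -4.44, -1.62 and -1.47 on indirect paths, with no such order.

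**Figure D4:**
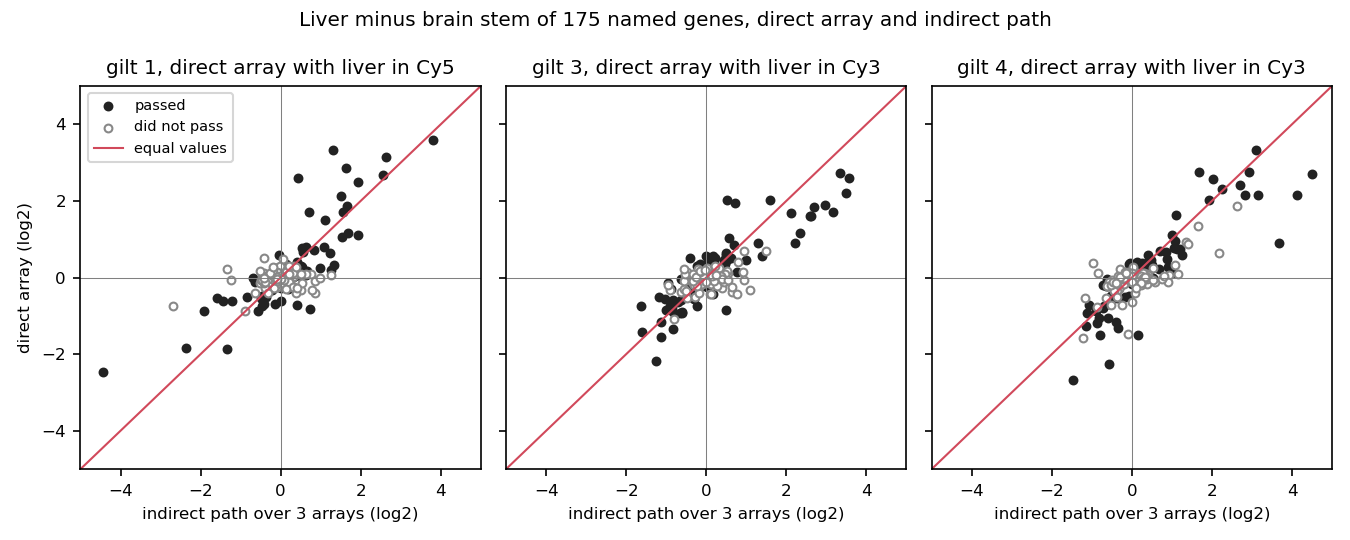
Liver minus brain stem of the 175 named genes on the direct array (vertical axis, log2) and along the indirect path of 3 arrays (horizontal axis, log2) in gilts 1, 3 and 4, with filled points for genes called over all gilts and a line of equal values. Genes with large positive values lie mostly above the line in gilt 1 and mostly below it in gilts 3 and 4.

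To compare the size of ratios without choosing features in the gilts measured, 1710 features with a difference of at least 1 in size in gilt 2 were followed in gilts 1, 3 and 4. Signed by gilt 2, their median size was 1.82 on direct arrays and 1.80 on indirect paths, and the sign of gilt 2 was kept by 98.4% on direct arrays and 97.8% on indirect paths. The medians over the 3 gilts were close, and those within a gilt were further apart. Among the 1219 that were higher in liver, gilt 1 had 1.96 on its direct array and 1.60 on the indirect path, gilt 3 had 1.76 and 2.44, and gilt 4 had 2.14 and 2.54. Among the 491 that were lower in liver, the direct value was the larger in every gilt, with 1.42 and 1.37 in gilt 1, 1.64 and 1.41 in gilt 3, and 1.76 and 1.26 in gilt 4. With a bound of 0.5 this order did not hold in gilt 1, where the 1735 features lower in liver had 0.67 on the direct array and 0.75 on the indirect path.

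The order for features higher in liver changed with the dye of liver on the direct array, Cy5 in gilt 1 and Cy3 in gilts 3 and 4. When a dye term was added to a fit of all 16 arrays, it passed for 202 features, 1 of them named (B3GNT5, a glycosyltransferase). With 1 direct array in the first orientation, gilt and dye orientation cannot be told apart here.

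**Figure D5:**
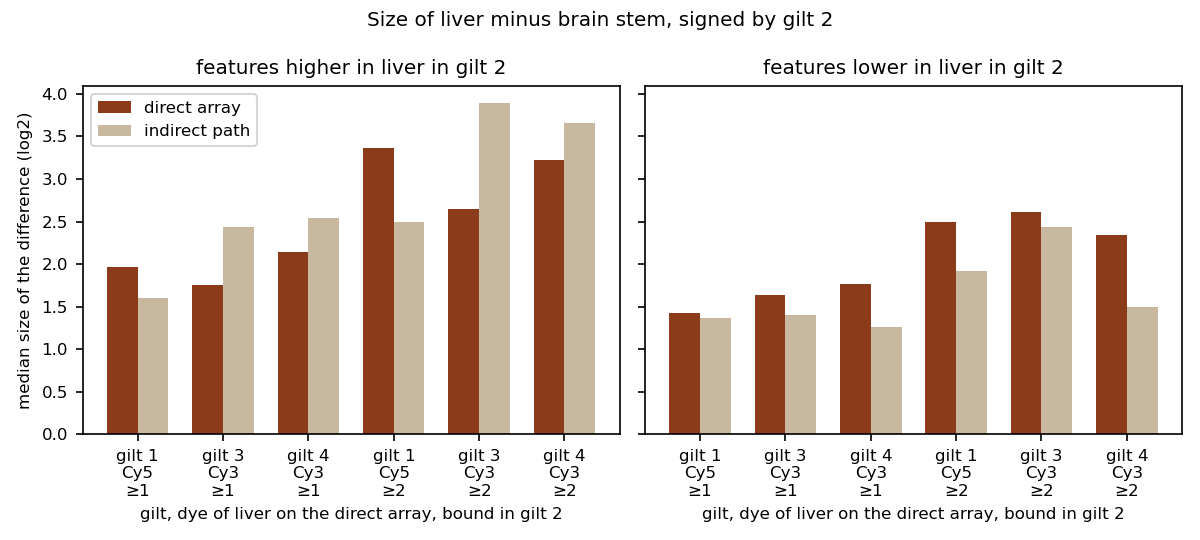
Median size of liver minus brain stem (log2, signed by gilt 2) on the direct array and on the indirect path, by gilt, dye of liver on the direct array and the bound set in gilt 2, for features higher (left) and lower (right) in liver in gilt 2. With a bound of 2, the 456 features higher in liver had 3.36 on the direct array against 2.50 on the indirect path in gilt 1, 2.65 against 3.90 in gilt 3 and 3.22 against 3.66 in gilt 4.

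Some genes that did not pass differed strongly in single gilts. JUN, an immediate early transcription factor, was lower in liver in gilts 1, 2 and 3 (-0.88, -0.97, -1.02) and higher in gilt 4 (2.07), so that its mean of -0.20 had an SD of 1.51 (n = 4; limma adjusted p = 0.783). Direct arrays and indirect paths had the same signs, with -0.87, -1.09 and 1.88 on direct arrays and -0.89, -0.82 and 2.64 on indirect paths in gilts 1, 3 and 4. KLF4, the other immediate early factor measured, had 0.12 in gilt 4 and a mean of 0.05. S100A11, a calcium-binding protein of epithelia and other cells, had -1.22, -0.52, 0.08 and 1.03 and thus lay on both sides of 0.

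The 5 largest mean differences that did not pass were those of INHA (0.52, limma adjusted p = 0.142), UTS2 (0.47, 0.0531), PSMB8 (0.43, 0.0676), TYROBP (0.39, 0.238) and XCR1 (-0.39, 0.14). INHA is the alpha subunit of inhibin and UTS2 is urotensin 2, a peptide first known from fish. Both were higher in liver in all 4 gilts. INHA, and not UTS2, passed when only the 4 per-gilt differences were fitted (limma adjusted p = 0.0303). With arrays centred on the median and scaled, UTS2 and PSMB8 passed (limma adjusted p = 0.00509 and 0.0219), and INHA did not. Which of these genes passed thus depended on the fit. TYROBP, an adaptor of receptors on macrophages and microglia, had 0.16, -0.05, 0.02 and 1.42, so that its mean came from gilt 4 alone.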

How the data were processed

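The authors' deposited table gave 1 ratio per row and array for 16 two-colour arrays of 20400 oligonucleotides. The authors deposited these ratios with array medians near 0, and they were read as log2 of Cy5 over Cy3. The base was inferred from the most extreme ratio, 10.42, which is 1372-fold with base 2 and 33586-fold with a natural log. How the authors scanned, background-corrected and normalized the arrays to make these ratios is not given in the file headers, labels or other sources used here. Per the labels' protocols, total RNA was amplified with an oligo(dT) primer and coupled to dyes. No intensities were used, so signal over background is unknown, and precision is limited by having 4 gilts.

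Within a gilt, least squares turned the 4 ratios into values for 4 tissues, in which the direct array has the largest weight. All 20736 rows (4 rows of ASIP averaged, giving 20733 features, control probes not separated) entered a linear model (limma 3.58.1, statmod 1.5.0, R 4.3.3) with tissue and gilt as factors and 9 residual degrees of freedom, with two-sided tests and Benjamini-Hochberg adjustment over all features at 0.05. The estimate of spread was shared by all 4 tissues, so the muscle and uterine values also enter each p-value. The labels tie each block to 1 animal. Deviations of liver and brain stem from their group means correlated across features with r of -0.15, -0.58, -0.28 and -0.49 in gilts 1 to 4. The 4 tissue values of a gilt sum to 0 by construction, which lowers these correlations. Direct minus indirect values of 3 gilts were fitted with an intercept.

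The members and gene lists were chosen with earlier results of these data known, and 4 of the lists were drawn up from probe names. Genes were named by rule: the 15 largest called differences above 0 and the 15 below 0 (every gilt having the same sign), members of the lists, the 5 largest differences that did not pass, and the 5 largest distances between direct and indirect values. Others were named after their values were seen. All 178 symbols matched the reference gene table by identifier, and 20558 rows stay unnamed here.

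The fit of liver minus brain stem was tested on simulated data with the spread of the 20733 features and independent noise. There, 64% of 100 features changed by 0.5 and 90% of 100 changed by 1 were recovered, and 6.1% of calls were unchanged features. Besides these, only 100 features shifted on the direct arrays were changed. In the data 37.6% of features were called, so these shares do not carry over to the calls given here. Alternatives covered block, dye term, direct or indirect arrays alone, centring, moderation, filters, sign and leaving out each gilt.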

Additional observations from a re-analysis of the deposited data

Results flagged for a closer look

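Among the 109 genes whose 4 gilts were examined in this way, 7 had a gilt set far apart from the other 3 by Dixon's test for 4 values. Chance alone gives about 1 in 20. In 6 of the 7 the gilt set apart was gilt 4.

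JUN, an immediate early factor, had 2.07 in gilt 4 and -1.02 to -0.88 in the others (gap over range 0.953). PROC, protein C, had 2.49 in gilt 4 and 2.83 to 2.85 in the others (0.937). PPYR1, the pancreatic polypeptide receptor, had -0.98 in gilt 4 and -0.25 to -0.17 in the others (0.910). MBL2, mannose-binding lectin, had 2.79 in gilt 4 and 1.97 to 2.06 in the others (0.891). TYROBP, a macrophage adaptor, had 1.42 in gilt 4 and -0.05 to 0.16 in the others (0.858). FOLR1, the folate receptor, had 3.15 in gilt 4 and 2.45 to 2.56 in the others (0.833). GOT1, aspartate aminotransferase, was the exception, with 1.46 in gilt 3 and 0.67 to 0.76 in the others (0.897). Gilt 4 also had the widest differences over all features, with an SD of 0.91 against 0.76 in gilt 1, 0.68 in gilt 2 and 0.78 in gilt 3.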

How the results depend on the processing

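Over all features, 4372 were higher and 3419 lower in liver, and with the sign turned these counts change places. On indirect paths alone 2064 were higher and 883 lower, and on direct arrays alone 1387 were lower. From the 4 per-gilt differences alone 2253 were lower. Leaving out each gilt gave 3243 to 3810 higher and 2140 to 2715 lower, the fewest both times without gilt 3. Of the named genes, 46 higher and 35 lower, the direct arrays gave 22 and 13, the indirect paths 21 and 11, and the per-gilt differences 22 lower, while leaving out a gilt gave 36 to 44 higher and 17 to 26 lower. With no replicate block 55 named genes were higher and 42 lower. The 4 tissue values of a gilt sum to 0, so leaving out the block changed the residual degrees of freedom and not the differences. In an alternative chosen after seeing the data, the pair was centred on 384 rows of small spread at the ends of the table's runs, which shifts every difference up by 0.16. Then 7877 features were higher and 1672 lower (82.5% of calls higher, against 56.1%), and 69 and 15 named genes. An upward shift favours higher calls over lower ones. All 46 higher named calls were kept and 15 of the 35 lower, while GAD2 (-0.16), CEND1 (-0.03), MC1R (-0.38) and PLIN1 (-0.15) were among the 20 lost. The cause of these changes was not tested, and some of these fits used fewer arrays.

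Direct and indirect values differed for 0 to 247 features when a gilt was left out, the 247 without gilt 1. With bounds of 0.5 and 2 in gilt 2, the median size was 0.93 and 3.02 on direct arrays and 0.96 and 3.30 on indirect paths. VNN1 changed sign on indirect paths alone, to 2.96e-05. Of 1795 values of the 109 genes examined under an alternative, 1516 kept direction and side of the threshold, 245 lost a call and 33 gained one.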
